A study of Mus musculus with 12 samples.

Results

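The genes of the aryl hydrocarbon receptor (AHR) pathway were followed by name: 7 of the 55487 genes in the count table, namely the receptor gene Ahr, its partner Arnt, the feedback inhibitors Ahrr and Tiparp, and the target genes Cyp1a1, Cyp1a2 and Cyp1b1. RNA sequencing had been done on 12 mouse libraries in 4 groups of 3. The groups were Hepa1 cells in ferroptotic medium, Hepa1 cells in control medium, Bach1-/- primary mouse embryonic fibroblasts (MEFs) in ferroptotic medium, and the same MEFs in control medium. Hepa1 is a hepatoma line labelled wild type, and the MEFs are labelled Bach1 knockout, so cell type and genotype cannot be told apart. The ferroptotic medium had been conditioned for 48 h by Bach1-re-expressing immortalised MEFs, which the labels call ferroptotic, and the control medium by control immortalised MEFs. Recipient cells stayed in these media for 4 days, and every group also received 2-mercaptoethanol (0.1 mM) and vitamin E (0.4 mg/mL). The labels do not give the embryos behind the MEFs or tell whether replicates were grown separately, so the p-values here capture the spread among libraries alone, which may be technical.

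AHR is a ligand-activated transcription factor of the bHLH-PAS family that waits in the cytosol with HSP90 and the co-chaperone p23. Dioxins, polycyclic aromatic hydrocarbons and several tryptophan products bind it, after which it enters the nucleus, pairs with ARNT and binds sites that hold the core GCGTG. CYP1 enzymes, its best known targets, oxidise many of its ligands and so help to end the signal, while AHRR and TIPARP (an ADP-ribosyltransferase) hold the receptor back. In liver Cyp1a1 and Cyp1a2 are the classical targets, Cyp1b1 is the CYP1 gene usually found in mesenchymal cells, and Hepa-1 hepatoma sublines have long served to study this receptor.

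Depth ran from 18.58 M to 23.4 M gene reads per library, and the floor of 3 counts in a library corresponds to 0.128 to 0.161 CPM from total counts. Levels below are in CPM (each gene's share of its library's reads), normalised between libraries unless said to be from total counts. The labels were checked on 3 genes and on marker lists. Bach1 was read at 98.4 ± 4.64 and 119 ± 3.85 normalised CPM in Hepa1 in ferroptotic and control medium, and at 88.8 ± 3.49 and 96.2 ± 5.69 in the MEFs (SD, n = 3 each). Counts over the whole gene cannot show whether some exons are deleted. For the albumin gene Alb there were 0 reads in every MEF library. Of 12 hepatocyte markers, Apoa1, Ttr and Serpina1a were at 0 reads in all Hepa1 libraries. The summed level of the list, from total counts, was 1647 to 1798 CPM in ferroptotic and 484 to 499 CPM in control medium. Of 10 fibroblast markers all were read in MEFs. From total counts they summed there to 21845 to 22457 CPM in ferroptotic and 25544 to 26233 CPM in control medium. Hepa1 replicate 3 in ferroptotic medium stood apart in MEF genes, as shown further below, and in genes detected (20158, against 19342 to 19682 in the other Hepa1 libraries). It had 368 reads of the collagen gene Col1a2, against 19 and 23 in the other ferroptotic libraries and 12 to 13 in the control libraries.

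Promoter sequence was available from RefSeq (GRCm38.p6) for 6 of the 7 genes, Ahr being the one without an entry. The 250 bases before the RefSeq start are shown for the genes whose medium responses are compared most closely below, Cyp1a1, Cyp1b1 and Tiparp, 5′ to 3′ on the gene's strand. Capitals mark the core GCGTG, or CACGC where the core lies on the other strand.
Cyp1a1, chr9:57697363-57697612, plus strand: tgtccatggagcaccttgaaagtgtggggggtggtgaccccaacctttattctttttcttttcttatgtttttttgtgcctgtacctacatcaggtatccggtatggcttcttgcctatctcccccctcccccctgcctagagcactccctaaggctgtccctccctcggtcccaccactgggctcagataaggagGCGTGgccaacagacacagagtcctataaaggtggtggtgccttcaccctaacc
Cyp1b1, chr17:79715062-79715311, minus strand: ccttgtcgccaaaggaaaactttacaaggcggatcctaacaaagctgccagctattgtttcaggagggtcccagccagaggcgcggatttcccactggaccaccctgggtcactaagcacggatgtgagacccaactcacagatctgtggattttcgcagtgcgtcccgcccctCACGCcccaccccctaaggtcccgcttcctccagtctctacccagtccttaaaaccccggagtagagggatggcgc
Tiparp, chr3:65528197-65528446, plus strand: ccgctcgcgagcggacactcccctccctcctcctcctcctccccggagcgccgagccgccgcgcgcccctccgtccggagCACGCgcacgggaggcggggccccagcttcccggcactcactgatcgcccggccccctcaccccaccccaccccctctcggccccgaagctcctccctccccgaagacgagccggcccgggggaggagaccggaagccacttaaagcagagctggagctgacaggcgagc

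The search covered GCGTG and TNGCGTG on both strands, over 250 bases before to 50 bases from each start, and every match to the longer motif is also a match to the shorter one. Cyp1a1 held 1 core from base -54 to -50 on its own strand. Cyp1b1 held 1 on the other strand from -76 to -72, and Tiparp 1 on the other strand from -170 to -166. Arnt held 1, Cyp1a2 held 0 and Ahrr held 3, of which 1 extended to TNGCGTG. Of 32851 RefSeq promoter windows of this length, 32.4% held at least 1 core, 3.91% at least 3, and 5.07% at least 1 TNGCGTG, so a single core in such a window is common. The classical Cyp1a1 enhancer lies further upstream than this window, and a match is a description of letters, not of binding.

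The receptor gene was lower in ferroptotic than in control medium in both cell types, and much higher in Hepa1 than in MEFs. Ahr (ENSMUSG00000019256, chromosome 12, 35497974 to 35535038, GRCm38, minus strand) had 137, 137 and 133 normalised CPM in Hepa1 in ferroptotic medium, against 173, 163 and 157 CPM in control medium. The MEFs had 20.9, 19.4 and 17.8 CPM in ferroptotic medium, against 26.0, 28.7 and 25.7 CPM in control medium. The groups did not overlap in either cell type. Its log2 change was -0.28 in Hepa1 (SE 0.0385, adjusted p = 5.74e-07 by edgeR's quasi-likelihood test), which left 0.826 of the control level. In MEFs the log2 change was -0.47 (SE 0.0670, adjusted p = 3.17e-08), which left 0.722 of the control level. The difference between the responses, Hepa1 minus MEF, was 0.20 (SE 0.0769, adjusted p = 0.0334), a call that was lost under 3 of 7 other settings. It was also lost without Hepa1 ferroptotic replicate 1 or 2, Hepa1 control replicate 3, or MEF ferroptotic replicate 2 (0.17 to 0.20, adjusted p 0.0509 to 0.0723). The lowest values were 0.13 without MEF ferroptotic replicate 3 (adjusted p = 0.221) and 0.14 without MEF control replicate 2 (adjusted p = 0.197).

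Arnt encodes the partner that AHR needs to bind DNA and that also serves the hypoxia-inducible factors (ENSMUSG00000015522, chromosome 3, 95434388 to 95497240, plus strand). Among the 5 pathway genes tested in Hepa1 it changed least. It had 77.7, 79.4 and 81.7 CPM in Hepa1 in ferroptotic medium and 84.5, 86.2 and 84.3 CPM in control medium. Levels in MEFs were 139, 137 and 134 CPM in ferroptotic medium and 154, 148 and 146 CPM in control medium. The groups did not overlap, but the steps were small. Its log2 change was -0.09 in Hepa1 (SE 0.0388, adjusted p = 0.0409) and -0.13 in MEFs (SE 0.0319, adjusted p = 0.000445). The Hepa1 call was lost in 4 of 8 other settings, among them the replicate block (adjusted p = 0.0624), and without Hepa1 ferroptotic replicate 1, 2 or 3 or control replicate 1 (adjusted p 0.0633 to 0.154). Without scaling beyond total counts the log2 changes were -0.05 in Hepa1 (adjusted p = 0.314) and -0.06 in MEFs (adjusted p = 0.0982), neither of them called.

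The feedback inhibitors were read at very different depths. Tiparp, whose product modifies and represses AHR (ENSMUSG00000034640, chromosome 3, 65528410 to 65555518, plus strand), had 37.7, 35.7 and 35.4 CPM in Hepa1 in ferroptotic medium, against 44.0, 53.6 and 48.4 CPM in control medium. MEF libraries had 29.1, 29.8 and 28.6 CPM in ferroptotic medium, against 29.9, 33.5 and 32.1 CPM in control medium. The Hepa1 groups stood clearly apart, while in MEFs the highest ferroptotic and the lowest control library almost met. The log2 change was -0.42 in Hepa1 (SE 0.0583, adjusted p = 4.75e-07), with 0.746 of the control level left. In MEFs it was -0.13 (SE 0.0569, adjusted p = 0.0572), which did not pass the threshold of 0.05, although it did without MEF control replicate 1 (-0.17, adjusted p = 0.0186). The responses differed by -0.30, Hepa1 minus MEF (SE 0.0846, adjusted p = 0.00364).

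Ahrr, which encodes a repressor that competes with AHR for ARNT (ENSMUSG00000021575, chromosome 13, 74211118 to 74292331, minus strand), had 0 reads in all 6 Hepa1 libraries, under the floor. In MEFs it had 16, 19 and 8 reads in ferroptotic medium and 12, 10 and 11 reads in control medium. The ferroptotic MEF libraries lay on both sides of the control ones, and the log2 change of 0.27 (SE 0.351, adjusted p = 0.541) did not pass; without MEF ferroptotic replicate 2 it was -0.0020 (adjusted p = 0.997). With so few reads a change of this size was not detectable.

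**Figure D1:**
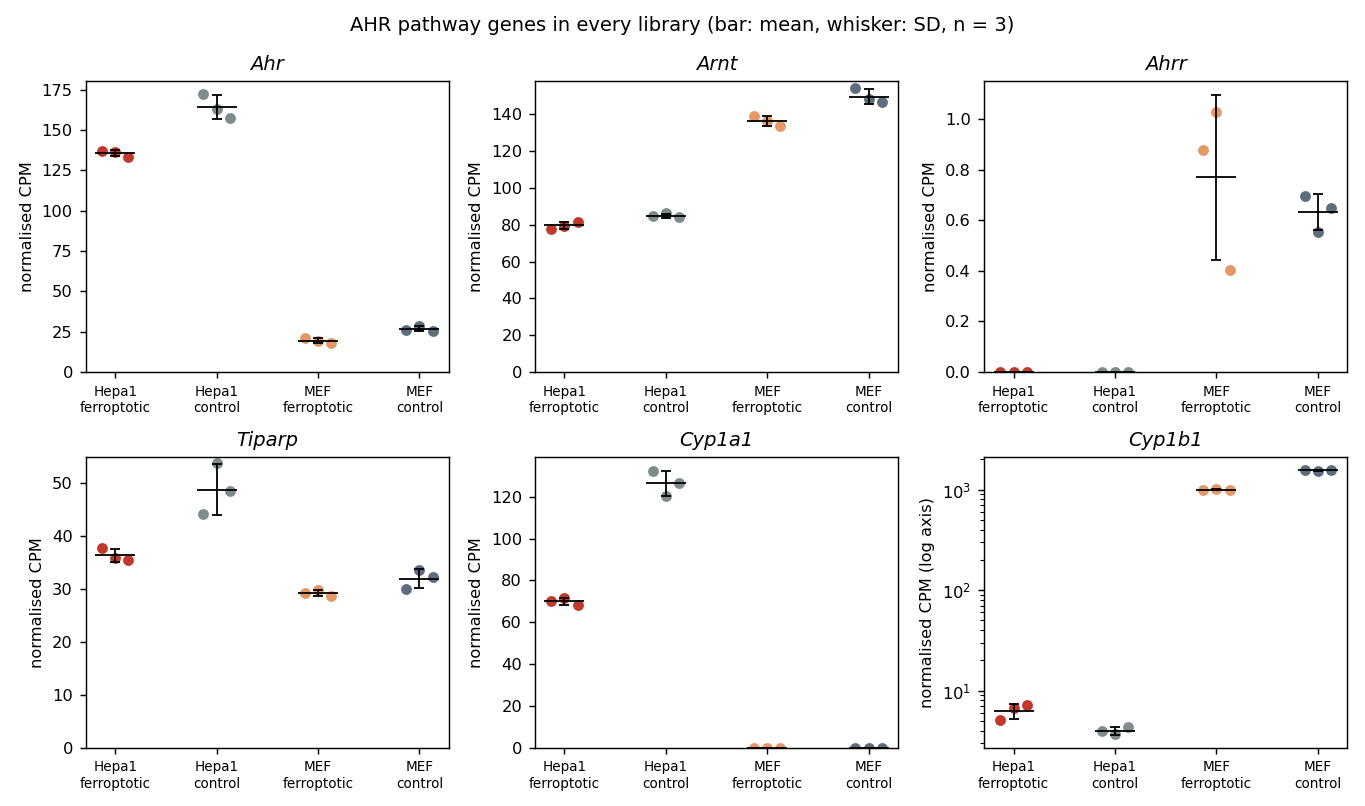
Normalised CPM of 6 AHR pathway genes in each library; points are libraries, bars the mean and whiskers the SD of 3 libraries, and the Cyp1b1 axis is logarithmic. Cyp1a1 averaged 70.1 CPM in Hepa1 in ferroptotic and 126 CPM in control medium with almost no reads in MEFs, whereas Cyp1b1 averaged 1001 CPM in MEFs in ferroptotic and 1554 CPM in control medium.

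The CYP1 target genes changed most, and Cyp1b1 moved in opposite directions in the 2 cell types. Cyp1a1 (ENSMUSG00000032315, chromosome 9, 57687928 to 57703824, plus strand) had 1711, 1654 and 1686 reads in Hepa1 in ferroptotic medium, against 3130, 2854 and 2896 reads in control medium. Scaled, these were 70.1, 71.7 and 68.3 CPM in ferroptotic medium and 132, 120 and 126 CPM in control medium. No ferroptotic library came near the lowest control library. The log2 change was -0.85 (SE 0.0426, adjusted p = 5.97e-16), so that 0.555 of the control level was left, and it lay between -0.89 and -0.80 in all 14 alternative fits. In MEFs Cyp1a1 had 0, 0 and 2 reads in ferroptotic medium and 0 reads in each control library, so it was not tested there.

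Cyp1a2 encodes the CYP1 enzyme typical of adult liver (ENSMUSG00000032310, chromosome 9, 57676937 to 57683703, minus strand). It lies head to head with Cyp1a1, with 4224 bases between the gene bodies and 13958 between the RefSeq starts. It had 0, 1 and 1 reads in Hepa1 in ferroptotic medium and 0 reads in the control libraries. The MEF libraries had 0 reads of it. It stayed below the floor of 3 counts throughout, beside a neighbour with at least 1654 reads in each Hepa1 library, and no fold is given.

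Cyp1b1 (ENSMUSG00000024087, chromosome 17, 79701537 to 79715061, minus strand) had 124, 156 and 176 reads in Hepa1 in ferroptotic medium, against 93, 88 and 100 reads in control medium. These were 5.08, 6.77 and 7.13 CPM in ferroptotic medium and 3.93, 3.70 and 4.36 CPM in control medium. In MEFs it had 18180, 18772 and 19690 reads in ferroptotic medium, against 26962, 27693 and 26482 reads in control medium. These were 996, 1017 and 991 CPM in ferroptotic medium and 1564, 1534 and 1563 CPM in control medium. Every ferroptotic library was above every control library in Hepa1 and below every control library in MEFs. The log2 change was 0.66 in Hepa1 (SE 0.128, adjusted p = 6.88e-05), a 1.58-fold higher level. In MEFs it was -0.63 (SE 0.0273, adjusted p = 1.80e-26), with 0.646 of the control level left. The responses differed by 1.29, Hepa1 minus MEF (SE 0.124, adjusted p = 4.13e-12).

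Reads of MEF genes varied among the Hepa1 libraries, and Cyp1b1 is abundant in MEFs, so its few Hepa1 reads were set beside them. The measure was 37 genes with at least 500 CPM in MEF control libraries and under 0.2 CPM in Hepa1 control libraries, both from total counts. This choice holds the Hepa1 control values low by itself. Their summed level in Hepa1 was 0.00913, 0.0151 and 0.125% of that in MEFs in ferroptotic replicates 1, 2 and 3, and 0.00462, 0.00912 and 0.00608% in the control replicates. At those shares Cyp1b1 would have 1.53, 2.38 and 21.6 reads in the ferroptotic libraries, against the 124, 156 and 176 counted. The share was thus highest in ferroptotic replicate 3, where it came to 12.3% of the Cyp1b1 reads. Without that library the log2 change of Cyp1b1 in Hepa1 was 0.57 (adjusted p = 0.00130). Markers of cell type moved with these genes too. The fibroblast list summed, from total counts, to 490 to 511 CPM in Hepa1 in ferroptotic and 399 to 455 CPM in control medium. Lum was at 0 in both, and the higher sum went alongside the higher Cyp1b1. Most of that Hepa1 sum came from Dcn (means of 334 and 289 CPM from total counts) and Pdgfrb (143 and 133 CPM). Dcn alone of the list was higher in Hepa1 than in MEFs, so it did not mark fibroblasts here. In MEFs the sum of that list, most of it from Col1a2 and Col3a1, was lower in ferroptotic medium, as given above, alongside the lower Cyp1b1. Not every marker went that way, here in normalised CPM: Twist1 averaged 161 in ferroptotic and 132 in control medium, Dcn 15.6 and 4.55, and Lum 9.65 and 2.24. The fibroblast list thus had members on both sides in MEFs, and in Hepa1 the hepatocyte list was higher alongside the lower Cyp1a1. The part of these shifts in the results was not tested.

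**Figure D2:**
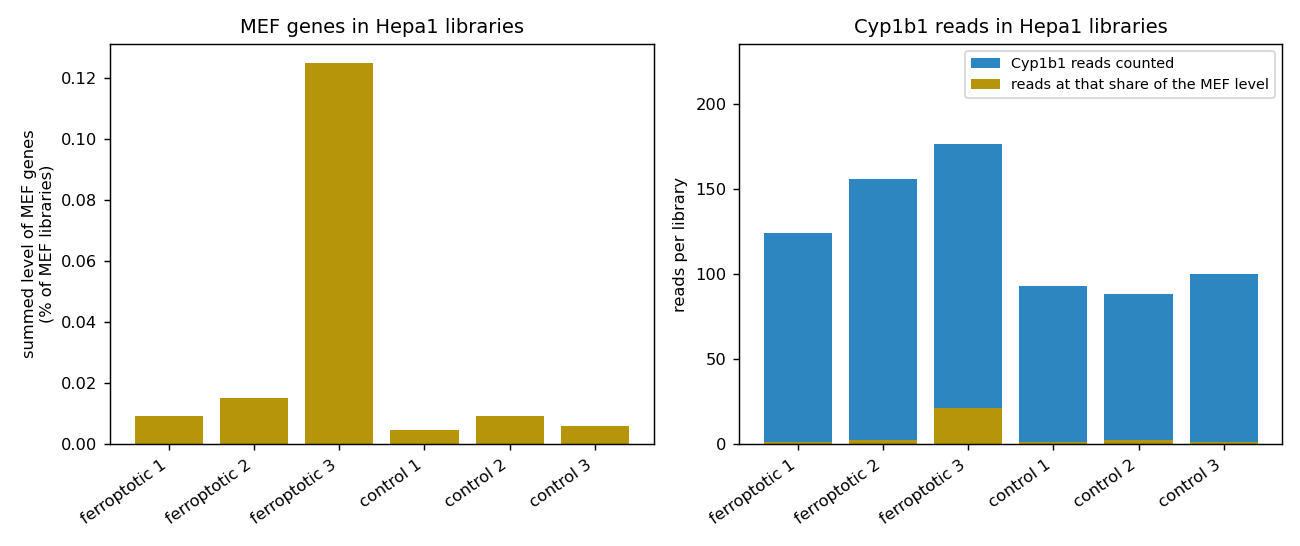
Left, the summed level of 37 MEF genes in each Hepa1 library as a percentage of their level in MEF libraries; right, Cyp1b1 reads per library (blue) and the reads that this percentage of the MEF level would give (ochre). Ferroptotic replicate 3 stands out at 0.125%, which corresponds to 21.6 of its 176 Cyp1b1 reads.

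Per length, the CYP1 transcripts of the 2 cell types came from different genes. Cyp1a1 stood at 25.1 RPKM (CPM divided by exon length) in Hepa1 in ferroptotic and 45.3 RPKM in control medium. Cyp1b1 stood at 1.08 RPKM in Hepa1 in ferroptotic and 0.685 RPKM in control medium, but at 171 RPKM in MEFs in ferroptotic and 266 RPKM in control medium. Cyp1a1 made up 95.8 ± 0.759% of the summed CYP1 RPKM in Hepa1 in ferroptotic medium and 98.5 ± 0.117% in control medium (SD, n = 3 each). The summed CYP1 level was 26.2 ± 0.612 RPKM in Hepa1 in ferroptotic and 46.0 ± 2.23 RPKM in control medium, and 171 ± 2.30 and 266 ± 2.88 RPKM in MEFs (SD, n = 3 each). The sum was lower in ferroptotic medium in both cell types, through Cyp1a1 in Hepa1 and through Cyp1b1 in MEFs. In bulk RNA, fewer cells that express a gene and less RNA per cell cannot be told apart.

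**Figure D3:**
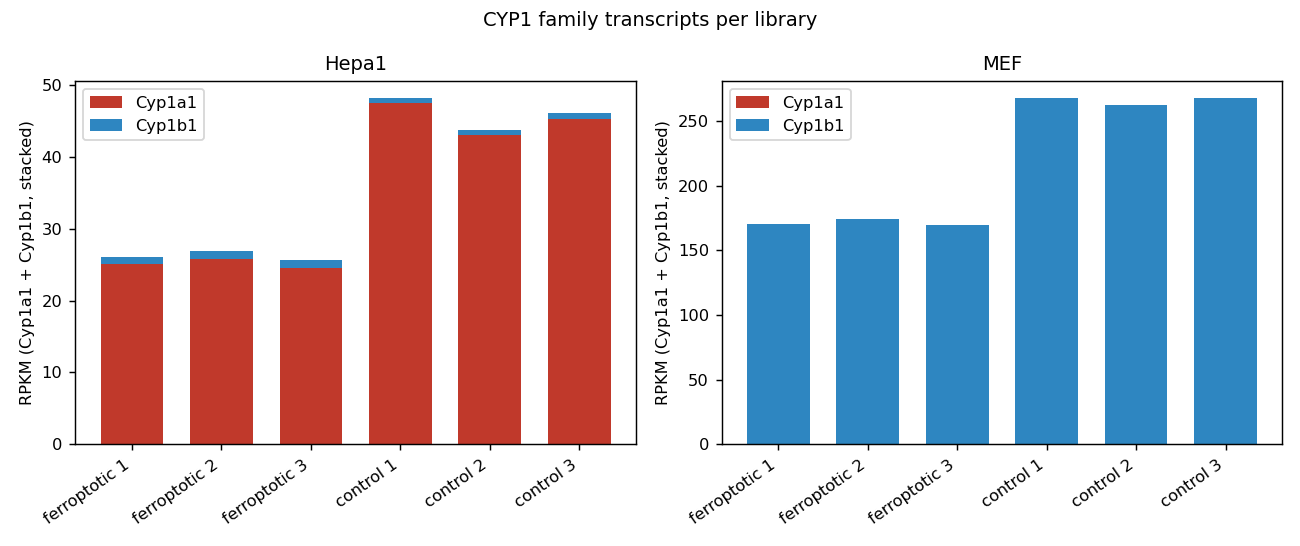
Stacked RPKM of Cyp1a1 and Cyp1b1 in each library, with separate linear axes for Hepa1 (left) and MEFs (right). Hepa1 bars are nearly all Cyp1a1 and MEF bars Cyp1b1, and the ferroptotic bars are the shorter ones in both panels.

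Counted together, 5 of the 7 genes passed the filter on low counts in Hepa1, and edgeR called all 5 of them at an adjusted p under 0.05, 4 lower and 1 higher. Among all 13169 genes tested in Hepa1, 58.1% were called, 28.8% lower and 29.3% higher, so a call by itself is the common outcome there. By size of change the genes were spread out: 8.66% of tested genes changed more than Cyp1a1, 12.9% more than Cyp1b1, 25.1% more than Tiparp, 41.1% more than Ahr and 76.1% more than Arnt. In MEFs 5 of the 7 passed the filter, and 3 were called, 3 lower and 0 higher. Of the 14441 genes tested in MEFs, 55.0% were called, 27.2% lower and 27.8% higher. Without scaling beyond total counts the share of higher genes among those called in MEFs was 63.8%, against 50.5% with it. In MEFs 14.2% of tested genes changed more than Cyp1b1, 21.5% more than Ahr, 64.4% more than Arnt and 65.5% more than Tiparp. The difference between the responses was taken up for the 4 genes tested in both cell types (Cyp1a1, Cyp1a2 and Ahrr had too few reads in at least 1 of them). It was called for 3, higher in Hepa1 for Ahr and Cyp1b1 and lower for Tiparp. Ahr was lower in ferroptotic medium in both cell types, so its difference is one of size. Of 15627 genes 44.2% were called, 23.3% higher and 20.9% lower. That share also covers genes that passed the filter in 1 cell type only, and the share among genes tested in both was not counted. For Arnt the difference was 0.04 (SE 0.0523, adjusted p = 0.587).

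For Ahr and the CYP1 genes the gap between the cell types was far wider than that between the media. Ahr was 7.02-fold higher in Hepa1 than in MEFs in ferroptotic medium (log2 2.81, adjusted p = 4.21e-40) and 6.12-fold higher in control medium (log2 2.61, adjusted p = 8.42e-40). Cyp1b1 was 158-fold lower in Hepa1 than in MEFs in ferroptotic medium (log2 -7.31, adjusted p = 1.35e-53) and 388-fold lower in control medium (log2 -8.60, adjusted p = 4.06e-55). The receptor and the most abundant CYP1 transcript were thus high in different cells. Arnt was lower in Hepa1, at log2 -0.78 in ferroptotic (adjusted p = 1.22e-23) and -0.82 in control medium (adjusted p = 1.50e-24). Tiparp was higher in Hepa1, at log2 0.32 in ferroptotic (adjusted p = 6.75e-06) and 0.61 in control medium (adjusted p = 4.33e-13). Without scaling these became -0.24 and -0.25 for Arnt and 0.86 and 1.18 for Tiparp, with the median of all genes at 0.46 and 0.49 in place of -0.08 in both.

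Genes with few or no reads in a group were given a bound, an interval or a ratio to a floor. Cyp1a1 was at least 2199-fold higher in Hepa1 than in MEFs in control medium, against a floor of 3 counts over the group. Its ratio in ferroptotic medium was 1981, with a 95% counting interval of 548 to 16361 that rests on 2 MEF reads. Both reads were in MEF ferroptotic replicate 3. The keratin gene Krt18, at 1412 CPM in Hepa1 in ferroptotic medium, had 2 to 47 reads in the MEF ferroptotic libraries. It had 3 to 6 reads in the MEF control libraries. Whether Hepa1 reads reached the MEF libraries was not tested. Against the same floor Ahrr was 18.3-fold lower in Hepa1 in ferroptotic and 14.8-fold lower in control medium. These ratios take the 43 and 33 MEF reads as exact, so they are not full lower bounds. All 6 genes tested were called in each medium, 3 higher and 3 lower. Cyp1a1 and Ahrr entered this fit only through the cell type in which they were read. Their calls, counted on opposite sides, were thus fixed beforehand and carry no weight. In ferroptotic medium 88.2% of all genes were called between the cell types, 41.5% higher and 46.7% lower in Hepa1, and in control medium 86.6%, 40.7% higher and 46.0% lower. Without scaling the share of higher genes among those called was 63.9% in ferroptotic and 64.5% in control medium, against 47.1% and 47.0% with it.

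In order of level, Ahr ran from Hepa1 in control medium down through Hepa1 in ferroptotic medium and MEFs in control medium to MEFs in ferroptotic medium. Tiparp had the same order and Arnt the reverse by cell type, highest in MEFs in control medium and lowest in Hepa1 in ferroptotic medium. For these genes no neighbouring groups overlapped. Cyp1b1 ran from MEFs in control medium through MEFs in ferroptotic medium and Hepa1 in ferroptotic medium to Hepa1 in control medium, again without overlap. For Ahrr the MEF groups overlapped each other. For Cyp1a1 Hepa1 in control medium stood above Hepa1 in ferroptotic medium, and the MEF groups, with 2 reads in all, overlapped. The share of all genes whose groups stand apart in this way was not counted. Calls were common among all tested genes, at 58.1% by medium in Hepa1 and 55.0% in MEFs. Between the cell types they reached 88.2% in ferroptotic and 86.6% in control medium, so the lack of overlap is not read as particular to these genes.

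Outside the 7 genes, the cytosolic AHR complex gave mixed values. Hsp90ab1, the more abundant of the HSP90 genes and looked at after its values were seen, averaged 3363 ± 36.3 CPM in Hepa1 in ferroptotic and 3473 ± 63.8 CPM in control medium (SD, n = 3 each). It was not called, with a log2 change of -0.05 in Hepa1 (adjusted p = 0.169) and 0.05 in MEFs (adjusted p = 0.0794). Hsp90aa1, which encodes the inducible form of this chaperone, averaged 110 ± 2.18 CPM in Hepa1 in ferroptotic and 163 ± 8.09 CPM in control medium (SD, n = 3 each), a log2 change of -0.57 (adjusted p = 4.01e-13). In MEFs its log2 change was -0.03 (adjusted p = 0.540), which turned positive without scaling. Src, a kinase found in the AHR complex, changed by -0.48 in Hepa1 (adjusted p = 8.92e-12) and -0.14 in MEFs (adjusted p = 0.00124), and the MEF call was lost without scaling. Ptges3, which encodes p23, changed by -0.25 in Hepa1 (adjusted p = 1.74e-05).

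Beyond the CYP1 genes, Nqo1 of the AHR battery had opposite responses in the cell types. Of the 7 listed, 4 were tested in Hepa1, where 2 were lower and 2 not called (median -0.58), and 2 in MEFs, where 1 was higher and 1 not called (median 0.47). These shares called are close to those of all tested genes, 58.1% in Hepa1 and 55.0% in MEFs. The medians given for this and the next lists are of log2 changes and stand against 0.0045 over all tested genes in Hepa1 and 0.0033 in MEFs. Nqo1, the quinone reductase gene shared with the NRF2 pathway, had 361, 383 and 369 reads in Hepa1 in ferroptotic medium and 767, 795 and 761 reads in control medium. In MEFs it had 409, 432 and 408 reads in ferroptotic medium and 192, 218 and 209 reads in control medium. Its log2 change was -1.10 in Hepa1 (SE 0.0620, adjusted p = 9.02e-15) and 0.90 in MEFs (SE 0.0767, adjusted p = 7.97e-15), and these differed by -2.00, Hepa1 minus MEF (adjusted p = 1.50e-21). Aldh3a1, an aldehyde dehydrogenase gene of the battery, had 58, 54 and 73 reads in Hepa1 in ferroptotic medium and 142, 122 and 133 reads in control medium. Its log2 change was -1.14 (SE 0.134, adjusted p = 3.14e-08), and in MEFs it had 3 to 8 reads in ferroptotic medium and 6 in each control library, too few to test. Nfe2l2, which encodes NRF2, was not called in either cell type, at -0.06 in Hepa1 (adjusted p = 0.158) and 0.04 in MEFs (adjusted p = 0.346). Ugt1a6b went the other way in Hepa1 without being called, and its groups overlapped. It averaged 3.06 ± 0.591 CPM in ferroptotic and 2.44 ± 0.381 CPM in control medium (SD, n = 3 each). Ugt1a6a had 38 reads in Hepa1 in ferroptotic and 25 in control medium, summed over 3 libraries. Gsta1 and Gsta2 had at most 1 read in any library.

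**Figure D4:**
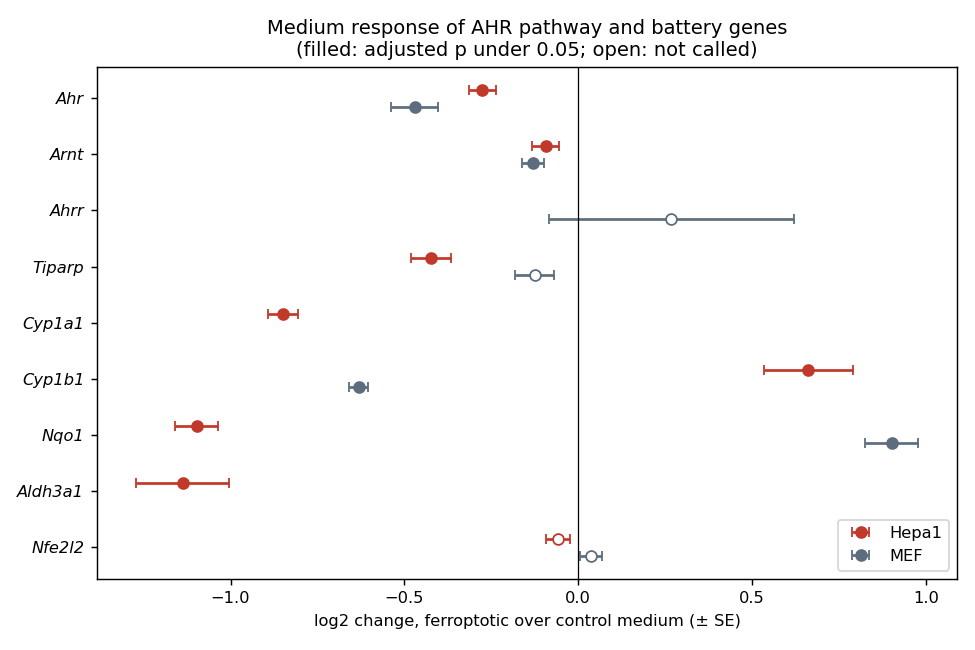
Log2 change of ferroptotic over control medium, with its SE, for the AHR pathway genes and 3 further battery genes in Hepa1 (red) and MEFs (grey); filled points were called and genes not tested have no point. Cyp1b1 and Nqo1 have points on opposite sides of 0 in the 2 cell types, at 0.66 and -0.63 and at -1.10 and 0.90.

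Among 16 bHLH-PAS relatives and ARNT partners, 9 were tested in Hepa1, of which 1 was higher, 4 lower and 4 not called (median -0.07), and 12 in MEFs, of which 5 were higher, 4 lower and 3 not called (median 0.09), where 58.1% of all genes were called in Hepa1 and 55.0% in MEFs. Hif1a, the oxygen-regulated partner of ARNT, averaged 203 ± 0.746 CPM in Hepa1 in ferroptotic and 357 ± 17.7 CPM in control medium (SD, n = 3 each), a log2 change of -0.82 (adjusted p = 2.82e-17). In MEFs it averaged 293 ± 5.72 CPM in ferroptotic and 463 ± 15.03 CPM in control medium (SD, n = 3 each), a log2 change of -0.66 (adjusted p = 4.85e-26). Epas1, which encodes HIF-2alpha, was higher in MEFs, at 126 ± 2.67 CPM in ferroptotic and 43.0 ± 3.24 CPM in control medium (SD, n = 3 each), a log2 change of 1.55 (adjusted p = 1.38e-35). In Hepa1 its log2 change was 0.20 (adjusted p = 0.0817), which was called without scaling. Per1, a clock gene like the next ones, changed by -0.70 in Hepa1 (adjusted p = 9.78e-13) and had a log2 change of -0.02 in MEFs (adjusted p = 0.749). Per2 changed by 0.60 in Hepa1 (adjusted p = 3.49e-05) and by -0.21 in MEFs (adjusted p = 0.00810), a MEF call that was lost without scaling. Per3 changed by 0.72 in MEFs (adjusted p = 1.46e-18), and its log2 change in Hepa1 was 0.15 (adjusted p = 0.420). Arntl and Clock, chosen after their values were seen, had log2 changes of -0.07 (adjusted p = 0.348) and -0.16 (adjusted p = 0.00345) in Hepa1 and 0.56 (adjusted p = 3.94e-07) and 0.12 (adjusted p = 0.00792) in MEFs. Arnt2, the close relative of Arnt, had 1 to 2 reads per Hepa1 library and 1084 to 1377 per MEF library; it was looked at after its values were seen.

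Most genes of tryptophan breakdown, a source of candidate AHR ligands, had too few reads to test. Of 11 listed genes 4 were tested in Hepa1, with 1 higher, 0 lower and 3 not called (median 0.05), and 3 in MEFs, with 0 higher, 1 lower and 2 not called (median -0.11), against 58.1% and 55.0% of all genes called. Kyat3, a kynurenine aminotransferase gene at 36.1 ± 1.59 CPM in Hepa1 in ferroptotic and 25.7 ± 0.846 CPM in control medium (SD, n = 3 each), changed by 0.49 in Hepa1 (adjusted p = 1.02e-08), and Kyat1, its relative, by -0.57 in MEFs (adjusted p = 1.39e-06). Ido1, whose product opens the tryptophan ring, had 0 reads in every library.

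Several coregulators changed in opposite directions in the cell types. Of 11 genes for AHR coregulators and turnover, 0 were higher, 8 lower and 3 not called in Hepa1 (median -0.17), and 4 were higher, 3 lower and 4 not called in MEFs (median 0.03). Among all tested genes 29.3% were higher and 28.8% lower in Hepa1, and 27.8% higher and 27.2% lower in MEFs. Crebbp, a histone acetyltransferase gene, averaged 61.4 ± 1.99 CPM in Hepa1 in ferroptotic and 73.8 ± 2.71 CPM in control medium, and 83.1 ± 3.24 and 59.1 ± 3.18 CPM in MEFs (SD, n = 3 each). Its log2 change was -0.26 in Hepa1 (adjusted p = 7.21e-06) and 0.49 in MEFs (adjusted p = 8.66e-15). The same signs were seen for Ep300, Nrip1 and Smarca4, at -0.19, -0.17 and -0.17 in Hepa1 and 0.14, 0.31 and 0.27 in MEFs, each called in both cell types. Sp1, a factor that acts at CYP1 promoters, changed by -0.26 in Hepa1 (adjusted p = 5.57e-07).

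CYP1 enzymes need electrons from P450 reductase and cytochrome b5, and heme. Of 8 such genes 5 were higher and 3 lower in Hepa1 (median 0.15), and 3 were higher, 1 lower and 4 not called in MEFs (median 0.05), against 58.1% of all genes called in Hepa1 and 55.0% in MEFs. Hmox1, which breaks heme down and is a direct target of BACH1, averaged 292 ± 9.67 CPM in Hepa1 in ferroptotic and 602 ± 24.2 CPM in control medium, and 3944 ± 80.8 and 2316 ± 49.8 CPM in MEFs (SD, n = 3 each). Its log2 change was -1.04 in Hepa1 and 0.77 in MEFs (adjusted p = 1.06e-19 and 3.50e-30). Alas1, which starts heme synthesis, was 34.8 ± 1.69 CPM in Hepa1 in ferroptotic and 57.9 ± 3.22 CPM in control medium (SD, n = 3 each), a log2 change of -0.73 (adjusted p = 9.82e-13). In MEFs its log2 change was 0.0067 (adjusted p = 0.903). Cyb5b, a cytochrome b5 gene, was higher in both, at 0.71 in Hepa1 and 0.21 in MEFs (adjusted p = 7.40e-17 and 6.03e-08). Cyb5a, its relative, changed by -0.16 in Hepa1 and 0.49 in MEFs (adjusted p = 0.000297 and 3.93e-17).

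**Figure D5:**
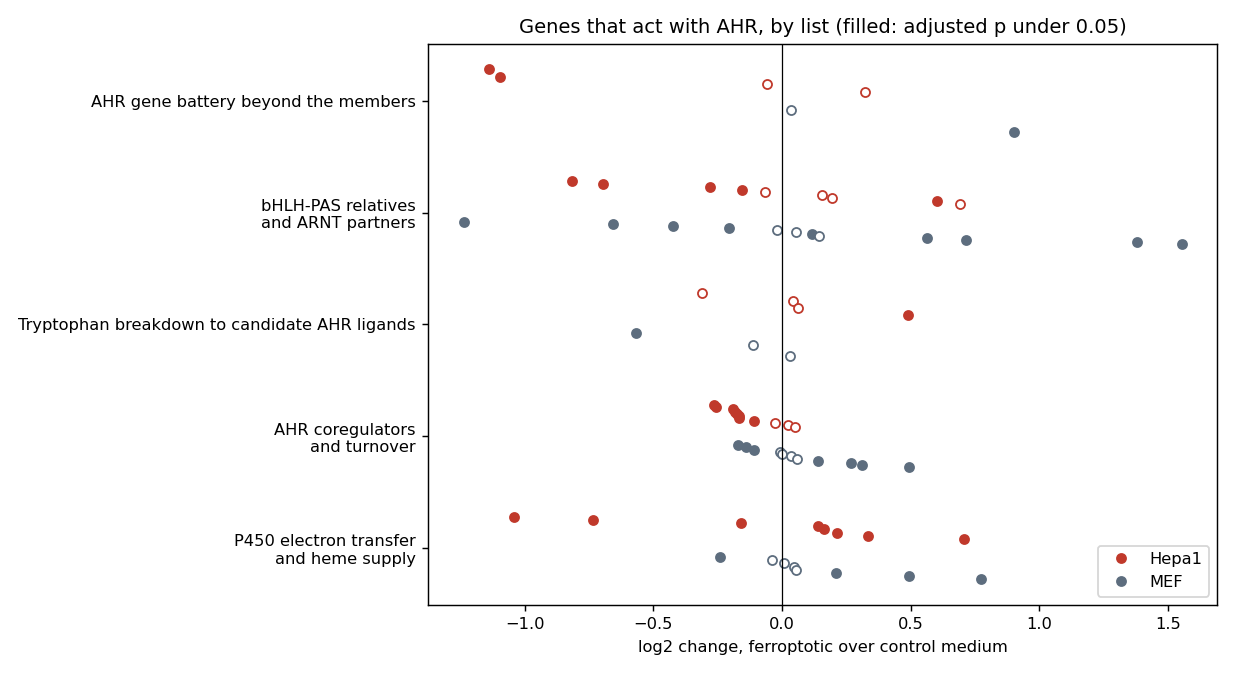
Log2 change of ferroptotic over control medium for the tested genes of 5 lists around AHR, 1 point per gene, in Hepa1 (red) and MEFs (grey); filled points were called. Of 11 coregulators 0 were called higher in Hepa1 and 4 in MEFs, where 29.3% and 27.8% of all tested genes were.

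Over the 12 libraries, the protein-coding genes whose log2 CPM followed each gene most closely were found by Pearson correlation, as a description only, since the cell types alone part the libraries into clusters. They were Stxbp2 and Pabpc1 for Ahr (0.998 each), Ric8a and 1600012H06Rik for Arnt (0.998 each), and F2rl1 and Zfp114 for Ahrr (0.989 each). For Tiparp they were Nt5c3 (0.986) and Cul4a (0.979), for Cyp1a1 Foxq1 and Socs7, and for Cyp1b1 Pde5a and Calhm5. Each of these genes, like the one it follows, was read in libraries of 2 cell types that share their depth and processing, and nothing is drawn from the likeness.

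Some neighbours share sequence with these genes. Exons of Ahr overlap the lincRNA Gm48236 on the other strand, and exons of Tiparp overlap 4931440P22Rik, also on the other strand; without a stated strand setting reads in the shared stretch cannot be told apart. Gm48236 had 5 and 7 reads in Hepa1 in ferroptotic and control medium and 0 in MEFs, summed over 3 libraries. 4931440P22Rik had 22 and 28 reads in Hepa1 in ferroptotic and control medium, and 57 and 21 in MEFs, small beside the Tiparp counts. The counts of these neighbours do not tell how many reads fell in the shared stretches.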

How the data were processed

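The authors deposited raw counts of reads for each Ensembl gene, both in separate sample files and in a joint table, whose values were compared and differed at 0 entries. The submitters' processing notes list HTSeq 0.9.1, STAR 2.7.10a, Trimmomatic 0.39 and FastQC 0.11.9, with the build GRCm38 (mm10). Neither strand setting nor annotation release is known (not given in the sources used here). An NEBNext Ultra II kit and 100 ng of input RNA were used, per the labels' protocols. The 5 HTSeq summary lines were set apart (no feature 2.00 to 2.58%, ambiguous 3.66 to 4.03%). GENCODE M21 gave names, coordinates and union exon lengths and left 260 identifiers unnamed.

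Groups came from the sample titles. Medium effects were fitted within a cell type (6 libraries), the interaction and cell contrasts over all 12, in R 4.3.3 by the edgeR 4.0.16 quasi-likelihood F-test, following filterByExpr and TMM scaling. A call is a Benjamini-Hochberg adjusted p under 0.05 over all genes tested, and the SE is the absolute log2 change divided by the square root of F. Printed CPM and RPKM use the TMM factors of all 12 libraries, except where CPM from total counts is stated. The sums over marker lists, the choice and share of MEF genes in Hepa1 libraries and the floor in CPM use total counts. The floor is 3 counts; it and the intervals reflect counting error only. Likeness used log2 of CPM plus 0.5.

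The genes and lists were chosen with earlier results of these data known. From each list up to 3 called genes per cell type with the smallest adjusted p were named, besides the 7 pathway genes, Bach1, Alb and Col1a2. For the cytosolic complex 1 listed gene is not reported here, so no count or median is given for that list. Nfe2l2, Gsta1, Gsta2, Ido1, Arnt2, Arntl, Clock, Hsp90ab1, Ncoa2, Ncoa3, Por, Hmox2, Fech and the fibroblast markers other than Col1a2 fall outside this rule and were chosen after their values were seen. The same holds for Ugt1a6a, Ugt1a6b and Krt18. Same-numbered replicates correlated at -0.0251 to 0.0521 in their deviations, so numbers were not treated as pairs. Alternatives were DESeq2 1.42.0 size factors, no scaling, the DESeq2 Wald test, limma-voom (limma 3.58.1), no filter, a filter of 1 CPM in 3 libraries, a replicate block, a fit of all 12 libraries, and leaving out each library.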

Additional observations from a re-analysis of the deposited data

Results flagged for a closer look

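Responses to the ferroptotic medium that differed between Hepa1 and MEFs, by edgeR's interaction test, are given here as Hepa1 minus MEF log2 differences. Among the pathway genes they were 0.20 for Ahr, -0.30 for Tiparp and 1.29 for Cyp1b1. In the cytosolic complex they were -0.54 for Hsp90aa1, -0.17 for Ptges3 and -0.34 for Src. The Ptges3 call (adjusted p = 0.0384) was lost in 9 of 19 alternative fits (range -0.20 to -0.14): in DESeq2, without a filter, and without replicate 2 or 3 of Hepa1 in ferroptotic medium, of Hepa1 in control medium or of MEFs in ferroptotic medium, or replicate 1 of MEFs in control medium. In the battery Nqo1 differed by -2.00.

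Among bHLH-PAS relatives the differences were -0.16 for Hif1a, -1.35 for Epas1, -0.68 for Per1, 0.81 for Per2 and -0.56 for Per3, and also, outside the rule for named genes, -0.63 for Arntl and -0.27 for Clock. Hif1a was lower in ferroptotic medium in both cell types, so its difference is one of size. In tryptophan breakdown they were 0.63 for Kyat1 and 0.46 for Kyat3. The Kyat3 call (adjusted p = 0.0163) was lost without MEF ferroptotic replicate 2 and without MEF control replicate 3.

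Among coregulators they were -0.33 for Ep300, -0.76 for Crebbp, -0.47 for Nrip1, -0.43 for Smarca4 and -0.25 for Sp1, and, outside that rule, 0.19 for Ncoa3 and -0.14 for Ncoa2. In electron transfer and heme supply they were -0.65 for Cyb5a, 0.50 for Cyb5b, -0.74 for Alas1 and -1.81 for Hmox1, and, outside that rule, 0.38 for Por, 0.41 for Hmox2 and 0.17 for Fech. Of all genes tested, 44.2% were called in this comparison.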

How the results depend on the processing

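Of 369 values recomputed for the 7 genes other than Cyp1a2 over 26 results, 349 kept their direction and their side of the threshold, 18 lost the call, 1 gained it and 1 changed sign. None of these changes fell in the contrasts between cell types, which are among the 26 results. The wide gaps of Cyp1a1 and Ahrr there left little room for a change, so the medium responses were less stable than the total tells. The sign change was that of Ahrr in MEFs, -0.0020 without MEF ferroptotic replicate 2, in a range of -0.0020 to 0.59 over the left-out libraries. The lost calls were those of Arnt in each cell type and of the Ahr difference between cell types; besides the values already given, Arnt in Hepa1 had adjusted p = 0.0696 in DESeq2 and 0.0684 without a filter, and the Ahr difference had adjusted p = 0.0722 without scaling, 0.0608 in DESeq2 and 0.0508 in limma-voom. The number of the 7 genes called was 4 to 5 in Hepa1, 2 to 4 in MEFs and 2 to 3 for the difference. With the replicate block the log2 change of Cyp1a1 in Hepa1 was -0.85 and that of Cyp1b1 was 0.66 in Hepa1 and -0.63 in MEFs; the block ended the call of Arnt in Hepa1 and no other call of the 7 genes, and 1 of 6 replicates correlated best with its own number. CPM from total counts alone moved levels, to 86.2 and 150 for Cyp1a1 in Hepa1 in ferroptotic and control medium. Depth limits Ahrr, Cyp1a2 and, in MEFs, Cyp1a1.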
